A study of Neurospora crassa with 12 samples.

Results

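The genes described here are 97 of 9730 counted genes of the filamentous fungus Neurospora crassa whose transcripts were at least 4-fold lower in a dim-5 deletion strain than in wild type, while a strain lacking a heterochromatic region kept more than 0.5 of the wild-type level. They were chosen from the libraries themselves. Levels are in CPM, a gene's count divided by the library's summed gene counts, on the usual scale of that unit. Of the 9730 genes, 7531 had a wild-type mean of at least 2 CPM, and 145 of those had a mean in the dim-5 deletion of at most 1 in 4 of the wild-type mean. In 120 of them every dim-5 deletion library lay below every wild-type library, and 98 also passed the limit in the other deletion strain. Leaving out dim-5 itself, NCU04402, gave the 97.

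The data were polyadenylated RNA-seq counts from mycelium shaken for 16 h at 32 °C in minimal medium with 1.5% sucrose, with 4 libraries for each of 3 strains. The wild type (WT) was strain N150, mat A. Strain NKL2, mat A, carries ΔLGIIK9het25::hph, a replacement of a large constitutive heterochromatic region by the hph marker, and is called ΔLGIIK9het25. Strain N3944 carries Δdim-5::bar+, in which the bar+ marker replaces dim-5, with its mating type given only as "mat x", and is called Δdim-5. Each genotype is 1 strain, so the loss of dim-5 and any other difference of strain N3944, mating type included, cannot be told apart. The labels do not say that the libraries of a strain came from separate cultures, so the spread between them may be technical.

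DIM-5 is the histone methyltransferase that places trimethylation on lysine 9 of histone H3 in Neurospora. Heterochromatin protein 1 (HP1, encoded by hpo) binds that mark, and the DNA methyltransferase DIM-2 methylates the underlying DNA, which is mostly AT-rich repeat sequence altered by repeat-induced point mutation. A separate complex with the methyltransferase SET-7 places trimethylation on lysine 27 of histone H3 over other, mostly silent, genes, and loss of dim-5 is known to redistribute that mark in this species. No chromatin mark was measured in the data used here.

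Counts in genes ran from 7164944 to 23925695 per library. The dim-5 transcript had 86, 50, 109 and 52 counts in the WT libraries and 104, 71, 104 and 83 in ΔLGIIK9het25, against 0, 0, 1 and 2 in Δdim-5. WT replicate 2 and ΔLGIIK9het25 replicate 2 stood apart by the share of reads outside any counted gene, at 36.7% and 31.8%, where the other libraries had 3.62% to 18.5%. The summed level of 9 genes of conidia and conidiation was 5612 CPM in WT replicate 3, 4243 CPM in ΔLGIIK9het25 replicate 2 and 16177 CPM in Δdim-5 replicate 2, against 658 to 2244 CPM elsewhere. This sum is weighted to eas and ccg-1, with WT means of 851 and 1078 CPM, where the other listed genes had 0.824 to 72.9 CPM. In Δdim-5, eas had 3845 ± 6620 CPM (SD, n = 4), so the sum need not reflect all 9 genes. The 5 genes of the other list, drawn up for hyphal growth and called hyphal genes here, summed to 12505 to 22641 CPM in the 12 libraries. That sum is weighted to nmt-1, with a WT mean of 11912 CPM, where act, tba-1, tba-2 and chs-1 had 293 to 2275 CPM. It therefore need not reflect all 5 genes.

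Among the members, transcripts ranged from absent to nearly 1 in 4 of the WT level. In Δdim-5, 23 members were at or below 5% of their WT mean, 16 lay between 5% and 10%, 30 between 10% and 20%, and 28 above 20%. Their median was 12.7% of WT. The members spanned WT means of 3.28 to 1612 CPM, and their median of 36.5 CPM was close to the 40.0 CPM of all 7531 genes that passed the WT minimum. On the log2 scale of the edgeR fit across all tested genes, the members' changes in Δdim-5 against WT ran from -9.56 to -1.94 with a median of -2.91, where the median of all 8496 tested genes was 0.01. All 97 members passed the filter on low counts and all were called lower at an adjusted p under 0.05, against a background of 7.53% of tested genes called lower. That count was fixed by how the members were chosen and is a description, not a result. In RNA from a whole culture, fewer cells of a type and less RNA per cell cannot be told apart.

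**Figure D1:**
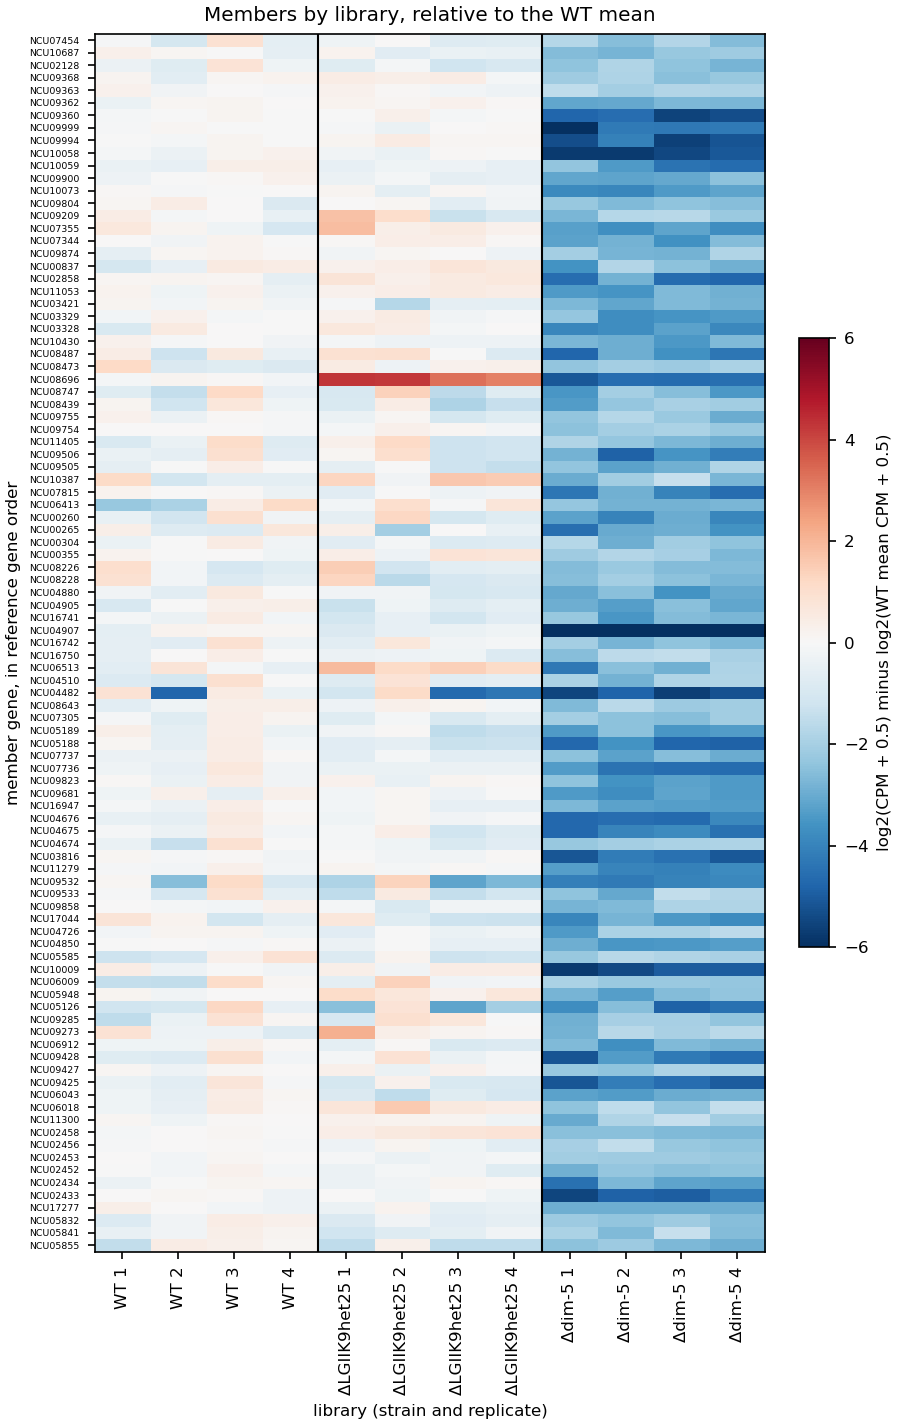
Level of each of the 97 members (rows, in the order of the reference gene table) in each of the 12 libraries (columns), as log2(CPM + 0.5) minus the log2 of the WT mean + 0.5. The 4 Δdim-5 columns are low throughout, as the choice of members requires, while the ΔLGIIK9het25 columns stay near the WT level in most rows, with 38 members above the WT mean and 59 below it.

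The most depleted abundant transcript was NCU04907. Its level was 323, 575, 528 and 529 CPM in the WT libraries, 267, 342, 375 and 411 CPM in ΔLGIIK9het25, and 0.916, 0.774, 0.252 and 0.627 CPM in Δdim-5. The WT and ΔLGIIK9het25 libraries overlapped through WT replicate 1 alone. The ΔLGIIK9het25 mean was 71.4% of the WT mean, a difference that edgeR did not call. Every Δdim-5 library was below 1 CPM. The 4 Δdim-5 libraries held 41 counts in all, against 18703 in WT, and the mean of 0.642 ± 0.285 CPM (SD, n = 4) was 0.132% of the WT mean of 488 ± 113 CPM. The fitted log2 change was -9.56, with a standard error of 0.38 derived from the F statistic of the edgeR test.

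NCU17277 was the member listed at 0 in every Δdim-5 library. It was a low transcript to begin with, at 4.26, 3.35, 2.90 and 2.60 CPM in WT and 2.44, 3.87, 2.00 and 2.26 CPM in ΔLGIIK9het25. Against a floor of 3 counts over the 4 Δdim-5 libraries it was at least 75.8-fold lower than in WT, a bound that covers counting error alone.

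Several further transcripts were close to absent in Δdim-5 without being low in WT. NCU10009 had 75.7, 45.5, 56.1 and 48.2 CPM in WT, 73.2, 49.3, 76.9 and 77.6 CPM in ΔLGIIK9het25, and 0.549, 0.845, 1.26 and 1.30 CPM in Δdim-5, or 1.75% of the WT mean. NCU03816 had 26.1, 23.0, 25.3 and 20.8 CPM in WT and 23.3, 20.5, 20.6 and 24.7 CPM in ΔLGIIK9het25, and fell to between 0.183 and 0.845 CPM in Δdim-5. NCU07815 started lower, with 8.99 to 13.2 CPM in WT, and had 0 to 1.13 CPM in Δdim-5, or 3.21% of the WT mean. For NCU10009 and NCU03816 the WT and ΔLGIIK9het25 libraries overlapped, and the highest Δdim-5 library was at least an order of magnitude below the lowest of either strain.

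**Figure D2:**
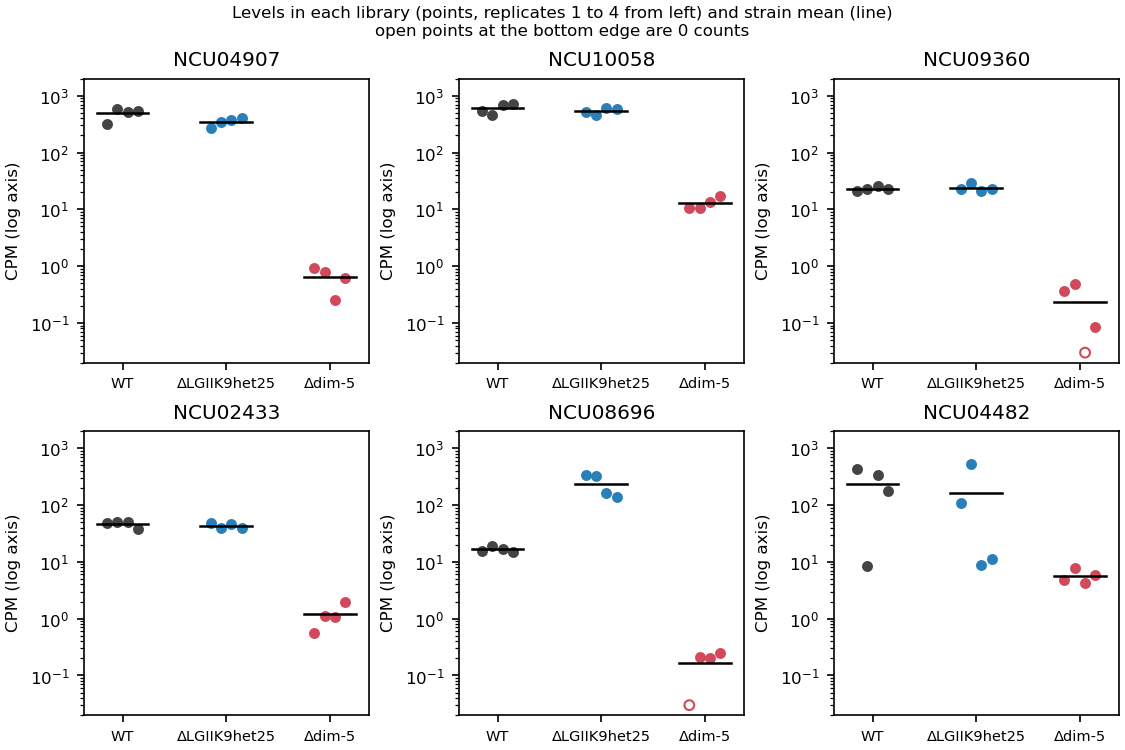
CPM on a log axis in every library for 6 members, with replicates 1 to 4 from left to right in each strain, the strain mean as a line and open points for 0 counts. NCU10058, NCU09360 and NCU02433 overlap between WT and ΔLGIIK9het25 and are low in Δdim-5. NCU04907 is also low in Δdim-5, and its overlap between WT and ΔLGIIK9het25 rests on WT replicate 1 alone. NCU08696 is 137 to 333 CPM in ΔLGIIK9het25 against 14.9 to 18.7 CPM in WT. NCU04482 varies from 8.37 to 430 CPM within WT.

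Only 7 of the 97 members carry a gene symbol in the reference gene table. Among the enzymes, cat-3 (NCU00355), which encodes a catalase that breaks down hydrogen peroxide, had 293, 250, 256 and 210 CPM in WT, 332, 204, 441 and 414 CPM in ΔLGIIK9het25, and 58.0, 75.2, 63.8 and 38.5 CPM in Δdim-5. It was the most abundant of the named enzymes and kept 23.3% of its WT mean, so it lies near the upper limit of the choice. The phosphatase gene pho-3 (NCU08643), which encodes a repressible acid phosphatase, had 25.7, 32.8, 50.2 and 50.2 CPM in WT, 31.9, 49.9, 45.3 and 35.3 CPM in ΔLGIIK9het25, and 5.86, 12.7, 8.37 and 8.99 CPM in Δdim-5.

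Both named carbohydrate-active enzymes were low transcripts in sucrose medium. The gene gh61-6 (NCU03328) encodes a protein of the former glycoside hydrolase family 61, now known as lytic polysaccharide monooxygenases that cleave cellulose. Its level was 4.99, 14.5, 10.1 and 9.82 CPM in WT, 15.6, 13.6, 8.98 and 10.2 CPM in ΔLGIIK9het25, and 0.183, 0.281, 0.605 and 0.209 CPM in Δdim-5. The family 31 glycoside hydrolase gene gh31-3 (NCU04674) had 5.98, 2.79, 15.4 and 7.81 CPM in WT, 7.32, 6.69, 3.99 and 4.83 CPM in ΔLGIIK9het25, and 1.28, 1.55, 1.76 and 1.84 CPM in Δdim-5. The gap between WT and Δdim-5 was thus narrow for gh31-3, whose lowest WT library lay at 2.79 CPM, and wide for gh61-6, which kept 3.25% of its WT mean.

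The remaining named members were gpr-3, gcy-3 and mig-6. The G protein-coupled receptor gene gpr-3 (NCU09427) had 82.1, 60.6, 79.8 and 76.1 CPM in WT, 91.0, 56.0, 89.2 and 70.2 CPM in ΔLGIIK9het25, and 14.8, 13.7, 20.2 and 19.7 CPM in Δdim-5. For gcy-3 (NCU04510) the values were 115, 98.3, 400 and 198 CPM in WT, 120, 353, 126 and 136 CPM in ΔLGIIK9het25, and 53.2, 27.5, 57.4 and 58.6 CPM in Δdim-5. The values for mig-6 (NCU09285) were 254, 546, 1329 and 782 CPM in WT, 375, 1430, 1174 and 718 CPM in ΔLGIIK9het25, and 97.5, 179.8, 181 and 139 CPM in Δdim-5. The last 2 genes varied strongly between libraries of 1 strain, by 4.07-fold for gcy-3 and 5.23-fold for mig-6 in WT, while gpr-3 varied by 1.35-fold.

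None of the genes listed for the H3K9 methylation pathway was a member, with dim-5 itself left out by name. Of a list of 10 genes (dim-5, dim-7, dim-8, dim-9, cul4, hpo, dim-2, hda-1, cdp-2 and chap), all were measured, and dim-5 was the 1 gene called lower in Δdim-5 against either other strain. By edgeR 0 of the 10 were called higher in Δdim-5, with 0 at an unadjusted p under 0.05 against WT and 2 against ΔLGIIK9het25, where DESeq2 called 1 and limma-voom 0. The 9 genes other than dim-5 had changes of -0.17 to 0.37 on the log2 scale against WT. In ΔLGIIK9het25 against WT 0 of the 10 were called by edgeR, DESeq2 or limma-voom, and 0 had an unadjusted edgeR p under 0.05. Of 7 genes on a list drawn up for H3K27 methylation, only set-7 and set-2 were found by symbol. Of these, set-7 alone encodes the methyltransferase that places that mark. Neither was a member, and edgeR, DESeq2 and limma-voom called neither in any of the 3 comparisons. With edgeR 0 had an unadjusted p under 0.05. The rest of the list was not examined, so nothing is read from it for the pathway.

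Some members were neighbours on the chromosomes. Counting members as a stretch when at most 2 other counted genes lay between them, 45 of the 97 (46.4%) fell into 16 stretches of 2 to 4 members, and 52 stood alone. A set of 96 genes raised at least 4-fold in Δdim-5 alone, chosen by the mirror image of the same limits, had 31 genes (32.3%) in 13 stretches, and 55 genes with every ΔLGIIK9het25 library below every WT library and a mean at most 0.5 of the WT mean had 6 (10.9%) in 3 stretches. These shares are set side by side without a test. The set of 55 is smaller, which by itself makes neighbours less likely, and the share in random sets of equal size was not computed. Members in stretches had a median of 10.2% of the WT mean in Δdim-5, and those outside had 13.9%. Because the counting ignored strand, reads of neighbouring genes that overlap cannot be assigned with certainty, and values of adjoining members may share reads.

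Of the genes lying between members of a stretch, 4 of 9 were called lower in Δdim-5 against WT by edgeR's quasi-likelihood test, 3 were not called and 2 were too low to be tested. Of the 90 distinct flanking genes, up to 3 on each side of a stretch and each counted once, 22 were called lower, 2 higher, 52 were not called and 14 were too low to be tested. The background over all tested genes was 7.53% lower and 9.0% higher. The median log2 change was -0.58 for the genes between members and -0.41 for the flanks, where all tested genes had 0.01.

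NCU04907 lay in a stretch with NCU04905, NCU16741 and NCU16742, which were less reduced, at 12.7%, 6.84% and 17.6% of WT in Δdim-5. NCU04905 had 67.0, 129, 163 and 171 CPM in WT, 51.4, 111, 76.4 and 87.4 CPM in ΔLGIIK9het25, and 17.0, 12.8, 22.9 and 14.7 CPM in Δdim-5. NCU16741 was low everywhere, with 3.91 to 7.24 CPM in WT, 2.11 to 3.40 CPM in ΔLGIIK9het25, and 0 to 0.641 CPM in Δdim-5. The single gene among them that was not a member, NCU04906, kept 63.7% of its WT mean and was not called. Close to this stretch lay NCU04904, NCU04909 and NCU04910, which were chosen for mention after their values were seen. They were at 8.93%, 4.96% and 1.70% of WT in Δdim-5, but stood outside the members because ΔLGIIK9het25 kept 41.1%, 37.7% and 36.0% of the WT mean. The limit in ΔLGIIK9het25 therefore split NCU04904, NCU04909 and NCU04910 from the stretch. NCU04908, between NCU16742 and NCU04909, was instead left out by the limit in Δdim-5. It was called lower at 34.2% of WT there, and had 28.5 CPM in ΔLGIIK9het25 against 24.6 CPM in WT.

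A stretch around gpr-3 showed the same kind of split. NCU09428 had 23.9, 22.9, 78.9 and 35.5 CPM in WT, 36.5, 74.5, 30.8 and 37.7 CPM in ΔLGIIK9het25, and 0.641, 3.52, 1.66 and 1.17 CPM in Δdim-5. NCU09425 had 17.5, 14.7, 39.3 and 21.9 CPM in WT, 10.8, 27.9, 12.3 and 11.8 CPM in ΔLGIIK9het25, and 0.183, 0.845, 0.504 and 0.251 CPM in Δdim-5. The adjoining NCU09429 fell to 1.73% of WT in Δdim-5, but with 31.8% in ΔLGIIK9het25 it was not a member. It had 16.2, 11.0, 106 and 38.0 CPM in WT and 9.11, 19.5, 12.5 and 13.3 CPM in ΔLGIIK9het25. These libraries overlapped, and the WT mean was weighted to replicate 3. In this run gpr-3, at 22.9% of WT, was the least reduced, and NCU09428, NCU09425 and NCU09429 were all at or below 5%.

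The stretch of gh31-3 also held NCU04676, NCU04675 and NCU16947. NCU04676 had 76.8, 72.2, 153 and 115 CPM in WT, 86.3, 114, 89.1 and 100.1 CPM in ΔLGIIK9het25, and 3.48, 3.87, 3.68 and 6.60 CPM in Δdim-5. NCU04675 had 51.4 to 89.0 CPM in WT, 28.4 to 86.0 CPM in ΔLGIIK9het25, and 2.01 to 4.24 CPM in Δdim-5. These were reduced to 4.23% and 4.79% of WT, and gh31-3 at the end of the run to 20.1%. The pair of gh61-6 was NCU03329, which had 35.1 to 47.9 CPM in WT, 34.4 to 55.2 CPM in ΔLGIIK9het25 and 2.46 to 7.42 CPM in Δdim-5.

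Among the other stretches, NCU07737, NCU07736 and NCU09823 lay side by side. NCU07736 had 103, 86.7, 191 and 104 CPM in WT, 92.3, 92.9, 95.1 and 95.1 CPM in ΔLGIIK9het25, and 11.4, 5.21, 4.59 and 4.51 CPM in Δdim-5. The 6 genes flanking this stretch had changes of -1.05 to 0.63 on the log2 scale. NCU05189 and NCU05188 formed a pair at 6.96% and 4.18% of WT, next to a flanking gene called higher. NCU08226 and NCU08228 moved together within each strain, from 73.2 to 296 CPM and from 142 to 479 CPM in WT and from 66.7 to 418 CPM and from 81.8 to 611 CPM in ΔLGIIK9het25, with replicate 1 the highest in both strains. In Δdim-5 they had 23.8 to 31.2 CPM and 37.2 to 60.8 CPM, with replicate 2 the highest.

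Allowing up to 10 other counted genes between members, a distance chosen after the values were seen, gave 2 spans with 5 or more members. The first ran from NCU09368 to NCU09804 and held 11 members among 33 counted genes. In ΔLGIIK9het25 those members stood at 75.4% to 124% of WT, and in Δdim-5 at 1.02% to 24.0%. NCU10058, the most abundant, had 549, 462, 674 and 703 CPM in WT, 512, 454, 619 and 578 CPM in ΔLGIIK9het25, and 10.6, 10.7, 13.3 and 17.0 CPM in Δdim-5. NCU09360, the most depleted, had 21.3, 22.5, 26.2 and 22.4 CPM in WT, 22.6, 28.5, 21.2 and 22.4 CPM in ΔLGIIK9het25, and 0.366, 0.493, 0 and 0.0836 CPM in Δdim-5. WT and ΔLGIIK9het25 overlapped for both genes. The WT libraries had a highest-to-lowest ratio of 1.52 for NCU10058 and 1.23 for NCU09360. The median over all 7531 genes above the WT minimum was 1.54.

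NCU09999 and NCU10073 in the same span also overlapped between WT and ΔLGIIK9het25. NCU09999 had 114, 131, 119 and 117 CPM in WT, 116, 91.6, 121 and 126 CPM in ΔLGIIK9het25, and 1.19, 5.84, 5.75 and 5.89 CPM in Δdim-5. NCU10073 had 238, 211, 218 and 229 CPM in WT, 249, 150.3, 243 and 199.7 CPM in ΔLGIIK9het25, and 15.3, 14.4, 20.9 and 24.6 CPM in Δdim-5. NCU09994 was reduced further, from 31.3 to 37.8 CPM in WT and 36.5 to 48.1 CPM in ΔLGIIK9het25 to between 0.202 and 1.55 CPM. Of the 22 other genes inside the span, 8 were called lower in Δdim-5 against WT, 11 were not called and 3 were too low to be tested. Their log2 changes ran from -1.96 to 0.52. By edgeR 0 were called higher, also by DESeq2 and limma-voom and at an unadjusted p under 0.05. The count of 8 fell to 5 without WT replicate 4. The background over all tested genes was 7.53% lower, and the span was picked for holding many members, so these counts are a description. Of the 10 genes on each side, 2 of 20 were called lower and 0 higher, where 4 and 1 had an unadjusted p under 0.05, DESeq2 called 4 and 1, and limma-voom called 3 and 0.

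The second span ran from NCU06018 to NCU02433, with 8 members among 21 counted genes. Those members stood at 78.8% to 191% of WT in ΔLGIIK9het25 and at 2.53% to 23.4% in Δdim-5. NCU02433 had 48.2, 51.4, 49.7 and 38.0 CPM in WT, 47.4, 39.3, 46.3 and 38.9 CPM in ΔLGIIK9het25, and 0.549, 1.13, 1.06 and 2.01 CPM in Δdim-5. NCU02453 had 191, 166, 201 and 191 CPM in WT, 176, 148, 159.8 and 171 CPM in ΔLGIIK9het25, and 43.5, 42.2, 42.1 and 38.9 CPM in Δdim-5. WT and ΔLGIIK9het25 overlapped for both genes. The Δdim-5 libraries lay close together for NCU02453 and were spread for NCU02433, whose highest was 2.01 CPM and lowest 0.549 CPM.

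Of the 13 other genes inside this second span, 7 were called lower in Δdim-5, 3 were not called and 3 were too low to be tested, with changes of -1.91 to -0.23 on the log2 scale. By edgeR 0 were called higher, and likewise 0 by DESeq2, by limma-voom and at an unadjusted p under 0.05. The count of 7 was the same whichever library was left out. NCU06017, which missed the choice at 25.4% of WT, was among the 7. The background was again 7.53% lower, and this span was picked in the same way. On the outer sides 4 of 20 genes were called lower and 0 higher, where 7 and 0 had an unadjusted p under 0.05. DESeq2 called 6 of these flanking genes lower and limma-voom 4, and both called 0 higher.

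**Figure D3:**
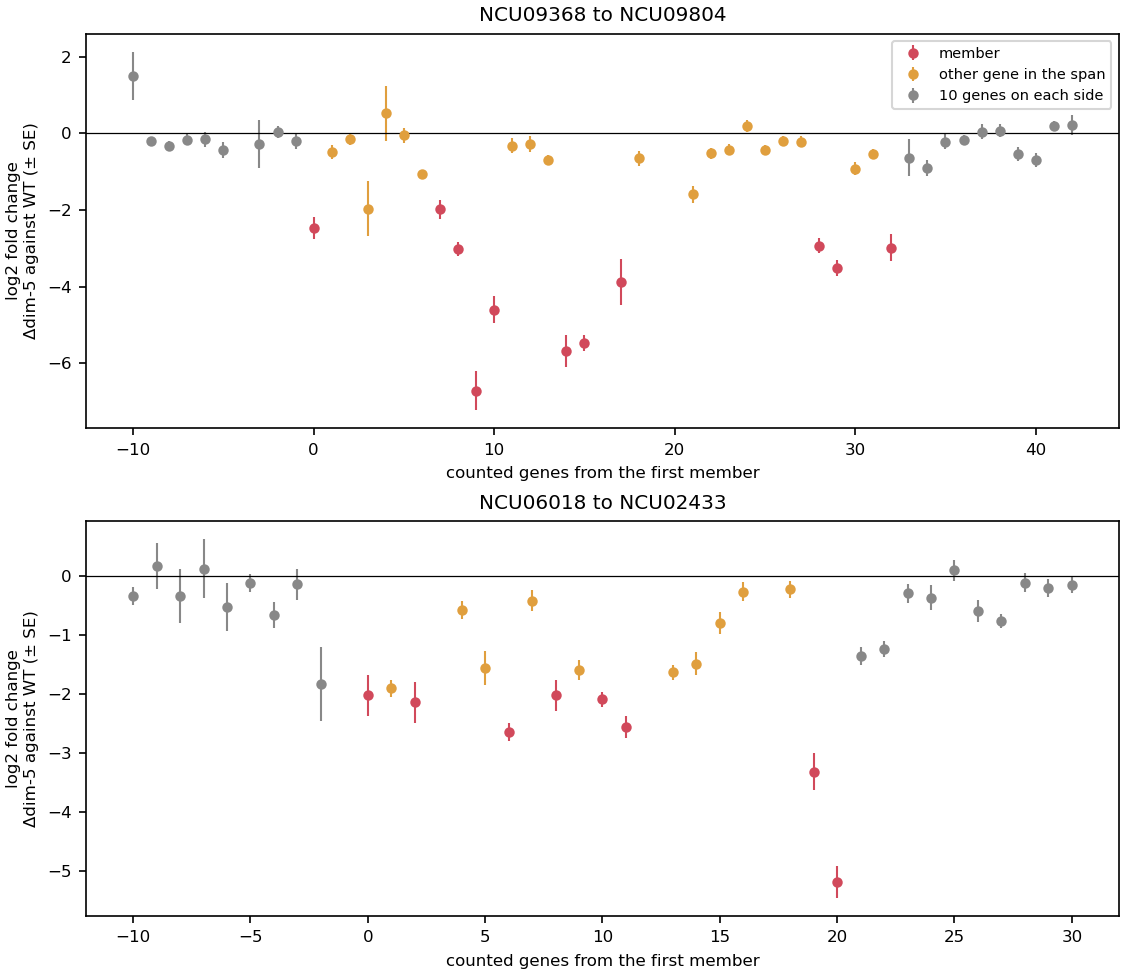
Log2 fold change of Δdim-5 against WT by edgeR, for each tested gene in gene order. The spans are NCU09368 to NCU09804 (top) and NCU06018 to NCU02433 (bottom), with 10 genes on each side. Bars are ± SE derived from the F statistic of the edgeR test. The x axis is in counted genes from the first member. Members reach -6.72 and -5.18, other genes inside the spans lie between -1.96 and 0.52 and between -1.91 and -0.23, and the genes on both sides lie between -0.90 and 1.50 and between -1.83 and 0.16.

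ΔLGIIK9het25 entered the choice of members by its mean alone, through the limit of 0.5 of the WT mean. The members' median in this strain was 91.7% of WT, where all 7531 genes above the WT minimum had 98.7%. All 4 ΔLGIIK9het25 libraries lay above all 4 WT libraries in 5 members (background 3.96% of genes) and below them in 2 (background 5.07%), so 90 members overlapped between the 2 strains. By edgeR, NCU08696 and NCU02458 were called higher in ΔLGIIK9het25 than in WT, against a background of 3.08%, and NCU06043 was called lower, against 1.24%. The choice of members used the means of these strains, so nothing is read from these counts.

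**Figure D4:**
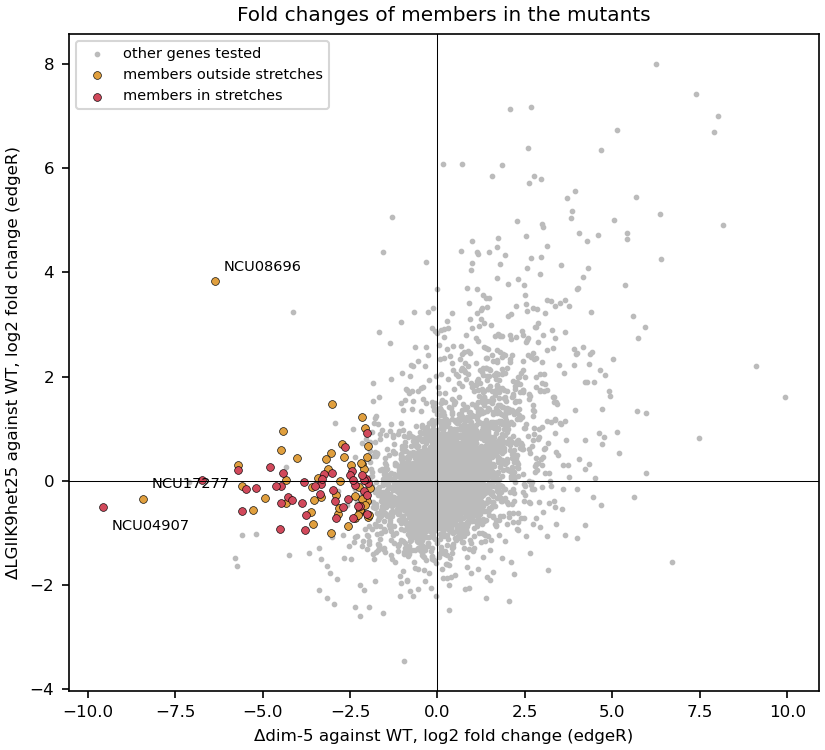
Log2 fold change of ΔLGIIK9het25 against WT (y axis) by that of Δdim-5 against WT (x axis), both from edgeR, for members in stretches (red), members outside (orange) and all other tested genes (grey). Both axes share the WT libraries. Members run from -9.56 to -1.94 on the x axis and from -1.0 to 3.83 on the y axis, with NCU08696 apart at the top.

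NCU08696 moved in opposite directions in the mutants. Its level was 15.4, 18.7, 17.1 and 14.9 CPM in WT, 333, 320.5, 166 and 137 CPM in ΔLGIIK9het25, and 0, 0.211, 0.202 and 0.251 CPM in Δdim-5. No library of 1 strain overlapped any of another. The log2 change in ΔLGIIK9het25 against WT was 3.83, a mean at 1445% of WT, and the Δdim-5 mean was 1.00% of WT.

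NCU02458 was raised more modestly in ΔLGIIK9het25, with 39.7, 45.5, 49.8 and 53.0 CPM against 27.4, 30.01, 32.8 and 29.2 CPM in WT, and had 4.76, 4.79, 4.34 and 4.26 CPM in Δdim-5. NCU06513 had 35.6, 20.8, 25.1 and 20.9 CPM in ΔLGIIK9het25 and 5.80, 16.1, 8.45 and 6.27 CPM in WT, with 0 to 2.13 CPM in Δdim-5; the strains did not overlap, and edgeR did not call the difference at 280.03% of the WT mean. NCU02858 and NCU05948, named after their values were seen, also lay above WT in every ΔLGIIK9het25 library, at 151% and 164% of the WT mean. At the other end, NCU06043 had 304, 250.0, 504 and 401 CPM in WT, 201, 125, 221 and 182 CPM in ΔLGIIK9het25, and 38.4, 35.7, 45.3 and 48.7 CPM in Δdim-5, so that its 3 strains formed 3 separate levels.

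Against ΔLGIIK9het25 in place of WT, the members' median log2 change in Δdim-5 was -2.93, and 94 of 97 were called lower, where the background was 7.92% lower and 8.83% higher. Every ΔLGIIK9het25 library lay above every Δdim-5 library in 95 members, against 13.2% of genes above the WT minimum. These counts describe the same libraries that chose the members. The 3 that were not called were NCU05126 at -2.74 (SE 0.89), NCU05585 at -1.27 (SE 0.48) and NCU09533 at -1.38 (SE 0.52).

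The spread between WT libraries is given as a description, because the choice of members used the means and minima of these libraries. The ratio of the highest to the lowest WT library had a median of 1.85 in members and 1.54 in all 7531 genes, and it exceeded 3 in 29 members (29.9%) against 808 genes (10.7%). Among members in stretches it exceeded 3 in 9 of 45 (20%), and among those outside in 20 of 52 (38.5%). In 53 members (54.6%) WT replicate 3 was the highest of its strain, as in 46.0% of all genes, and in 52 (53.6%) ΔLGIIK9het25 replicate 2 was, as in 38.9%. In 38 members (39.2%) both held, as in 23.6% of all genes.

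A group of 14 members, picked by these values, lay more than 2-fold above the mean log2 level of the other 3 libraries of the strain in both WT replicate 3 and ΔLGIIK9het25 replicate 2, which does not mean above each of them. They were 14.4% of members, where 246 of the 7531 genes (3.27%) did so. The choice of members used the means that include these libraries, so nothing is read from the 2 shares. Among the 14 were gcy-3, mig-6, NCU04482, NCU05126, NCU09428, NCU09425, NCU09532 and NCU09533. In WT, NCU04482 had 429.9, 8.37, 336 and 178 CPM, in ΔLGIIK9het25 110.1, 521, 8.79 and 11.3 CPM, and in Δdim-5 4.76, 7.95, 4.29 and 5.93 CPM. Its lowest WT library was within 1 CPM of its highest Δdim-5 library, so WT replicate 2, ΔLGIIK9het25 replicates 3 and 4 and the Δdim-5 libraries were all low for this gene. NCU05126 had 53.6, 59.6, 293 and 86.6 CPM in WT, 21.1, 217, 13.5 and 29.5 CPM in ΔLGIIK9het25, and 8.79, 20.8, 3.78 and 4.97 CPM in Δdim-5. NCU09532 likewise reached 53.4 CPM in WT replicate 3 and 59.6 CPM in ΔLGIIK9het25 replicate 2, but had 2.18 to 6.26 CPM in the other ΔLGIIK9het25 libraries and 0.774 to 1.17 CPM in Δdim-5.

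WT replicate 3 and ΔLGIIK9het25 replicate 2 were also the libraries with the highest summed level of the 9 conidial genes in their strains, a sum weighted to eas and ccg-1. The highest of all, Δdim-5 replicate 2 at 16177 CPM, was more than 2-fold above the mean log2 level of the other Δdim-5 libraries in 3 of the 14 members. By edgeR 0 of the 9 conidial genes and 0 of the 5 hyphal genes were called in any of the 3 comparisons, where at an unadjusted p under 0.05 2 conidial genes were higher and 1 hyphal gene was lower in Δdim-5 against WT, 1 conidial gene was higher against ΔLGIIK9het25, and DESeq2 called 1 conidial gene higher against WT and limma-voom 0. The part of conidial RNA in the members' levels was not tested. With these 3 libraries left out together, an alternative chosen after seeing the data, the same limits chose 91 genes, of which 79 were among the 97, and 5 of the 14 remained.

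**Figure D5:**
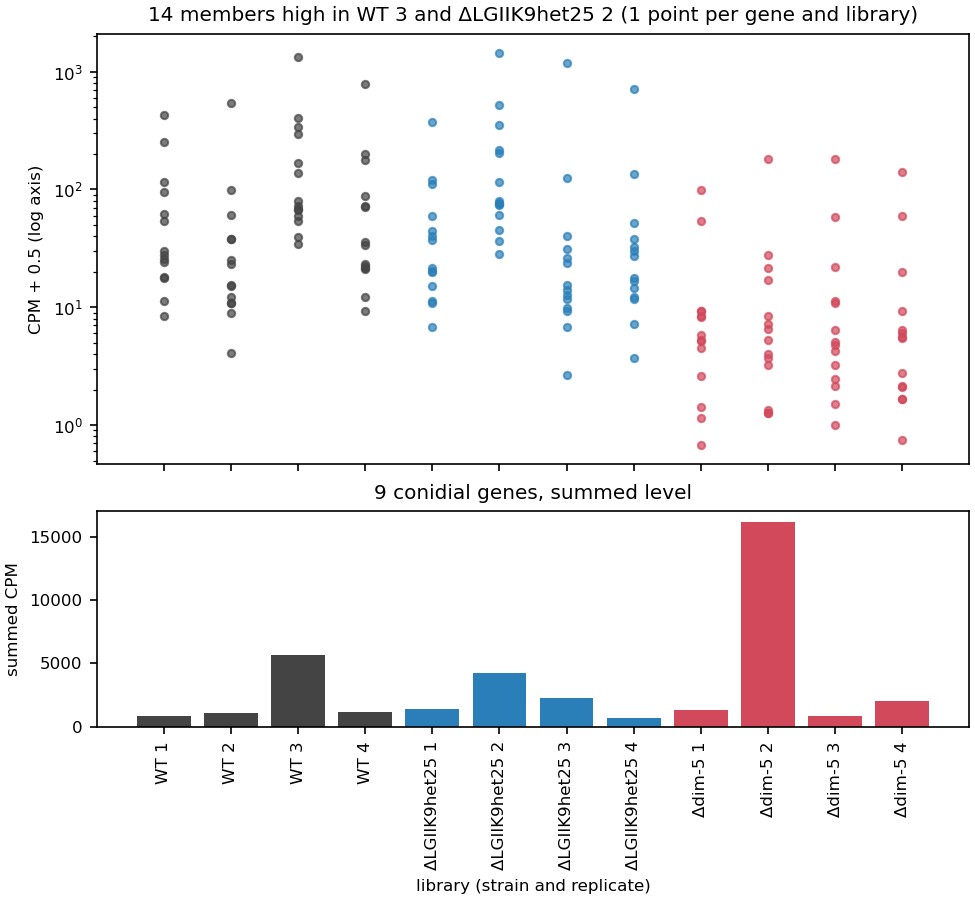
Top, CPM + 0.5 on a log axis of the 14 members in each library (1 point per gene and library). Bottom, summed CPM of 9 conidial genes in the same libraries, a sum weighted to eas and ccg-1. WT replicate 3 and ΔLGIIK9het25 replicate 2 are high in both panels, in the top one because the 14 were picked so. Δdim-5 replicate 2, the highest bar at 16177 CPM, has low points above it, as the choice of members requires.

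The member with the highest WT mean was NCU00265, with 2053, 936, 906 and 2551 CPM in WT, 2026, 396, 1621 and 1194 CPM in ΔLGIIK9het25, and 70.5, 197, 209.8 and 134 CPM in Δdim-5. Its order among the libraries was not that of the 14 genes, since WT replicate 3 and ΔLGIIK9het25 replicate 2 were its lowest libraries. Some members stood out by evenness instead. NCU09754 had 71.0, 70.5, 71.3 and 67.1 CPM in WT, 63.4 to 85.6 CPM in ΔLGIIK9het25 and 12.4 to 18.7 CPM in Δdim-5, and NCU04850 had 20.1 to 22.1 CPM in WT, 14.9 to 20.7 CPM in ΔLGIIK9het25 and 1.41 to 2.38 CPM in Δdim-5.

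At the edge of the choice, the last members were NCU05585, gcy-3 and NCU05841 at 24.1%, 24.3% and 24.4% of the WT mean. The nearest genes outside that met every other limit were NCU05735, NCU09274 and NCU06017 at 25.2%, 25.2% and 25.4%. The limit in ΔLGIIK9het25 removed 22 genes, whose levels in that strain were 21.3% to 49.4% of WT.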

How the data were processed

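For each of the 12 libraries the authors deposited a gene-level table of raw counts, per the labels. HISAT2, HTSeq and DESeq2 are named in the submitters' processing notes, with settings, build and gene models not given in the sources used here. The deposited tables are named as counted without regard to strand, although the kit was directional. The 5 closing entries of each table that name no gene held 12.6% to 51.4% of reads and were left out. Library totals in genes of 7164944 to 23925695 make 1 count worth 0.0418 to 0.140 CPM. No 2 libraries of a strain agreed within sampling noise.

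CPM were computed here from plain library totals. Genes kept by filterByExpr (8496) were fitted in R 4.3.3 with edgeR 4.0.16 (TMM, glmQLFit and glmQLFTest) over all 12 libraries with 1 mean per strain, and p-values were adjusted by the Benjamini-Hochberg method over all tested genes; a gene was called under 0.05. Each edgeR standard error (SE) is the absolute log2 change divided by the square root of the F statistic, and was not taken from the fitted coefficient. The procedure was tested on simulated data. Alternatives used limma-voom (limma 3.58.1), DESeq2 1.42.0, other scalings, filters and limits, and each library left out.

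The members, lists and tests were chosen with earlier results of these data known. Members named are the 12 lowest fold changes with a WT mean of at least 10 CPM, those in stretches, those with a symbol, the 5 highest and 5 lowest in ΔLGIIK9het25 relative to WT, those nearest the limit and those with at most 3 Δdim-5 counts; others are said to be chosen after their values were seen, or illustrate spread. Of 9730 identifiers, 9729 matched the RefSeq gene table of assembly NC12, which served for 1118 symbols and gene order alone. Product classes, promoters and proteins were planned but not analysed here. Of the 7 genes on the H3K27 methylation list, 5 were not found by symbol.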

Additional observations from a re-analysis of the deposited data

Results flagged for a closer look

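In groups of 4 libraries, Dixon's test at its 95% critical value was applied to the named genes, 201 groups in all. It marked 21 groups, where about 1 in 20, or 10.05, would be marked by chance, and 7 of the 21 were in ΔLGIIK9het25 replicate 2. In that library gcy-3 (NCU04510) stood at 353 CPM (others 120.3 to 136), NCU05855 at 64.2 CPM (17.4 to 17.8), NCU07737 at 109 CPM (76.5 to 77.2), NCU09425 at 27.9 CPM (10.8 to 12.3) and NCU09994 at 48.1 CPM (36.5 to 38.2), all above the others, while NCU10009 at 49.3 CPM (73.2 to 77.6) and NCU10387 at 24.3 CPM (69.5 to 85.1) lay below. In other ΔLGIIK9het25 libraries NCU09273 was high at 49.8 CPM in replicate 1 and NCU11300 low at 6.79 CPM in replicate 4.

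In WT, NCU04907 was low in replicate 1 at 323 CPM (others 528 to 575), as was NCU05855 at 18 CPM (56.1 to 69.2), and NCU09506 was high in replicate 3 at 71.2 CPM (22.8 to 27.3). In Δdim-5 replicate 2, NCU05188 at 5.35 CPM, NCU05189 at 1.34 CPM and NCU08226 at 31.2 CPM were high and gcy-3 at 27.5 CPM was low. In Δdim-5 replicate 4, NCU04676 at 6.60 CPM and NCU09900 at 11.7 CPM were high. In Δdim-5 replicate 1, NCU07736 at 11.4 CPM was high, NCU09999 at 1.19 CPM was low, and NCU08696 had 0 counts where the others were at 0.202 to 0.251 CPM, which is within the 0.275 CPM that 0 counts allow at the depth of replicate 1. All of these Δdim-5 values remained below the lowest WT library of the same gene, as the choice of members requires.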

How the results depend on the processing

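The number of genes chosen, 97, was 157 with a limit of 1 in 3 of the WT mean. It was 69 with 1 in 5, 93 with TMM-scaled CPM, 119 with no limit in ΔLGIIK9het25, and 88 to 117 with 1 library left out, of which 85 to 97 were among the 97. Without WT replicate 2 it was 117, and without ΔLGIIK9het25 replicate 2 it was 88. Members in stretches were 45, and 35 with no gene or 54 with up to 10 genes between them. Members called lower in Δdim-5 against WT were 83 to 97 over all settings, and 92 to 97 with 1 library left out; against ΔLGIIK9het25 the latter range was 88 to 95. The 2 members called higher in ΔLGIIK9het25 became 1 at an adjusted p under 0.01 and 4 with DESeq2, with 1 to 3 when 1 library was left out. The 1 called lower became 0 at an adjusted p under 0.01, 0 when only the 2 strains compared were fitted and 2 with limma-voom, with 0 to 2 when 1 library was left out. Of the other genes inside the span NCU09368 to NCU09804, 5 were called lower at an adjusted p under 0.01 and 5 to 9 with 1 library left out. The cause of these shifts was not tested. For the 67 named genes under 19 alternatives, 0 changes of Δdim-5 against WT turned direction and 11 calls were lost, in NCU04482, NCU05126, NCU09273, NCU09533 and NCU10387.

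With the replicate number as a block, the 4 counts of called members (lower in Δdim-5 against WT, lower against ΔLGIIK9het25, and higher and lower in ΔLGIIK9het25 against WT) were 97, 91, 2 and 1, and the counts of other genes called lower in the spans were 8 and 7. The numbers did not pair the libraries: same-numbered libraries correlated at -0.21 to 0.59 in their deviations from the strain means, and 3 of 12 library pairings were best with their own number. Depth limits the lowest values: 3 counts correspond to 0.125 to 0.275 CPM in the Δdim-5 libraries, and levels below that cannot be ordered.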
